A study of Mus musculus with 36 samples.

Results

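The comparison set 2 hs72 knockout libraries against 2 wild-type libraries of the same run tag, a mark in the names of the deposited lists. These 4 libraries, of 18 in the series, were chosen by genotype label and run tag. The rule used no measured value, but the choice was made with earlier results of these data known. Each library is a chromatin immunoprecipitation with an antibody against H3K27ac, acetylated lysine 27 of histone H3, from forelimbs of FVB mouse embryos at embryonic day 11.5. The hs72 KO embryos (replicates 1 and 2) are labelled as null for the hs72 enhancer, and the WT embryos (replicates 3 and 4) as wild type. Neither group was treated. Tissue was pooled, and the number of embryos in a pool and of founders of the knockout line is not given in the sources used here. The other 14 libraries, WT replicates 1 and 2 and knockouts of 5 other limb enhancers, served only to show who else calls a region, and mm1179 KO replicates 3 and 4 among them carry the same run tag.

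An enhancer is a stretch of DNA that raises the transcription of a gene, often from a distance, through the transcription factors that bind it. Chromatin at active enhancers and promoters is acetylated at lysine 27 of histone H3, so peaks of this mark serve as a map of active elements in a tissue. The hs72 enhancer lies near Sall1, which encodes a zinc-finger transcription factor used in limb, kidney and neural development. In the GRCm38 gene order the protein-coding neighbours of Sall1 are Cyld, a deubiquitinase, and Tox3, a protein of the high-mobility-group box family. The deposited lists are on mm9, and no annotation of that build was used, so that regions are given by mm9 position, no gene was assigned to them and the labelled tissue was not checked against marker genes.

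Each list gives a position and the authors' own score per peak. The score is used here only to rank peaks within a list, as a percentile of that list from 0 (weakest) to 100 (strongest). Regions are stretches where peaks of 2 or more of the 4 libraries lie, and a library calls a region when any of its peaks overlaps it by 1 bp or more. Read counts are not part of the lists, which leaves the depth of every library unknown. A region without a peak is therefore one that was not called, not one shown to lack the mark. A weaker call may reflect fewer cells with the mark or less of it per cell, which cannot be told apart in pooled tissue.

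The 4 lists were of similar size, and the libraries of a genotype differed from each other more than the genotypes did. WT 3 held 38824 peaks over 81.35 Mb and WT 4 held 44647 over 101.7 Mb. For the knockout, hs72 KO 1 held 39460 peaks over 88.71 Mb and hs72 KO 2 held 43503 over 105.5 Mb. The knockout mean of 41481.5 ± 2858.8 peaks (SD, n = 2) compared with a wild-type mean of 41735.5 ± 4117.5, a difference of -254 that was smaller than either SD (exact two-sided permutation test, p = 1). Mean peak width was 2095.4 bp in WT 3, 2278.4 bp in WT 4, 2248.0 bp in hs72 KO 1 and 2425.7 bp in hs72 KO 2, so the 2 groups overlapped. It averaged 2336.9 ± 125.7 bp in the knockout and 2186.9 ± 129.4 bp in the wild type (exact p = 0.667). Covered length averaged 97.12 ± 11.89 Mb against 91.54 ± 14.4 Mb (exact p = 0.667). With 2 libraries a group there are 6 arrangements, and the smallest p this test can give is 0.333, so it cannot call any difference at 0.05. The sign of the difference in peak number turned without WT 4 (2657.5) or hs72 KO 1 (1767.5), and that in covered length without WT 3 (-4.607 Mb) or hs72 KO 2 (-2.833 Mb). Nothing says whether the libraries of a group came from separate pools, and the spread between them may be technical. Within regions called by all 4 libraries the order of the libraries was the same, with a median covered length of 2089.0 bp in WT 3, 2212.5 bp in hs72 KO 1, 2310.0 bp in WT 4 and 2357.0 bp in hs72 KO 2. The longer list of each pair also had the wider peaks.

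Near Sall1, in a window of 1.6 Mb that starts at 91 Mb of chromosome 8, 1 region was called by both wild-type libraries and by neither hs72 knockout library. It lies at chr8:91977661-91979436 and is 1776 bp long. WT 3 had a peak of 1776 bp there with a score of 104.0, at percentile 46.4 of its list. WT 4 had one of 1968 bp with a score of 121.2, at percentile 48.5. In hs72 KO 1 and hs72 KO 2 no peak overlapped it. The region was thus of middle rank in the wild type and uncalled in both knockout libraries. Whether it is the deleted element itself was not tested, since the element's coordinates are not given in the sources used here.

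All of the other 14 libraries called this region. Their percentiles ran from 35.9 through a median of 51.5 to 74.2, and the values of the compared wild-type libraries lie within that range. In the mm1179 knockout, deleted for another enhancer and of the same run tag, the percentiles were 52.4 in mm1179 KO 3 and 45.3 in mm1179 KO 4. WT 1 and WT 2, of another run tag, gave 35.9 and 52.0. The 2 hs72 KO libraries were therefore the only 2 of 18 without a call here.

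Regions called by both wild-type libraries and neither knockout library were not rare, and that background sets how the missing region reads. Over the genome there were 43785 regions, of which 1399 (3.2%) had this pattern. In the window it was 1 of 38 regions, or 2.63%, which is near the background. What set the region at 91.98 Mb apart among the 1399 was its rank and its calls elsewhere. Its mean wild-type percentile was 47.4, against a median of 21.5 for the 1399, and 73 of them ranked higher. Only 22 were wider. Of the regions that all 4 compared libraries call, 41.0% were called by all 14 other libraries. Of the 1399, 13 (0.929%) were called by all 14, and 4 of these 13 ranked higher. No test was made of these ranks. Without hs72 KO 1 or hs72 KO 2 the 1399 would be 2482 or 3803, since 1 missing call then suffices.

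The 4 regions that ranked above it in that set of 13, picked out after their values were seen, lie elsewhere in the genome. The strongest, at chr13:99788783-99791234, had percentiles of 54.9 in WT 3 and 71.6 in WT 4. The others were chr17:10711813-10713384 with a mean of 52.8, chr14:120711483-120713035 with 49.9 and chr8:48918296-48919774 with 49.0. A region called by every library except the hs72 knockouts was thus found at 12 places besides the window near Sall1.

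**Figure D1:**
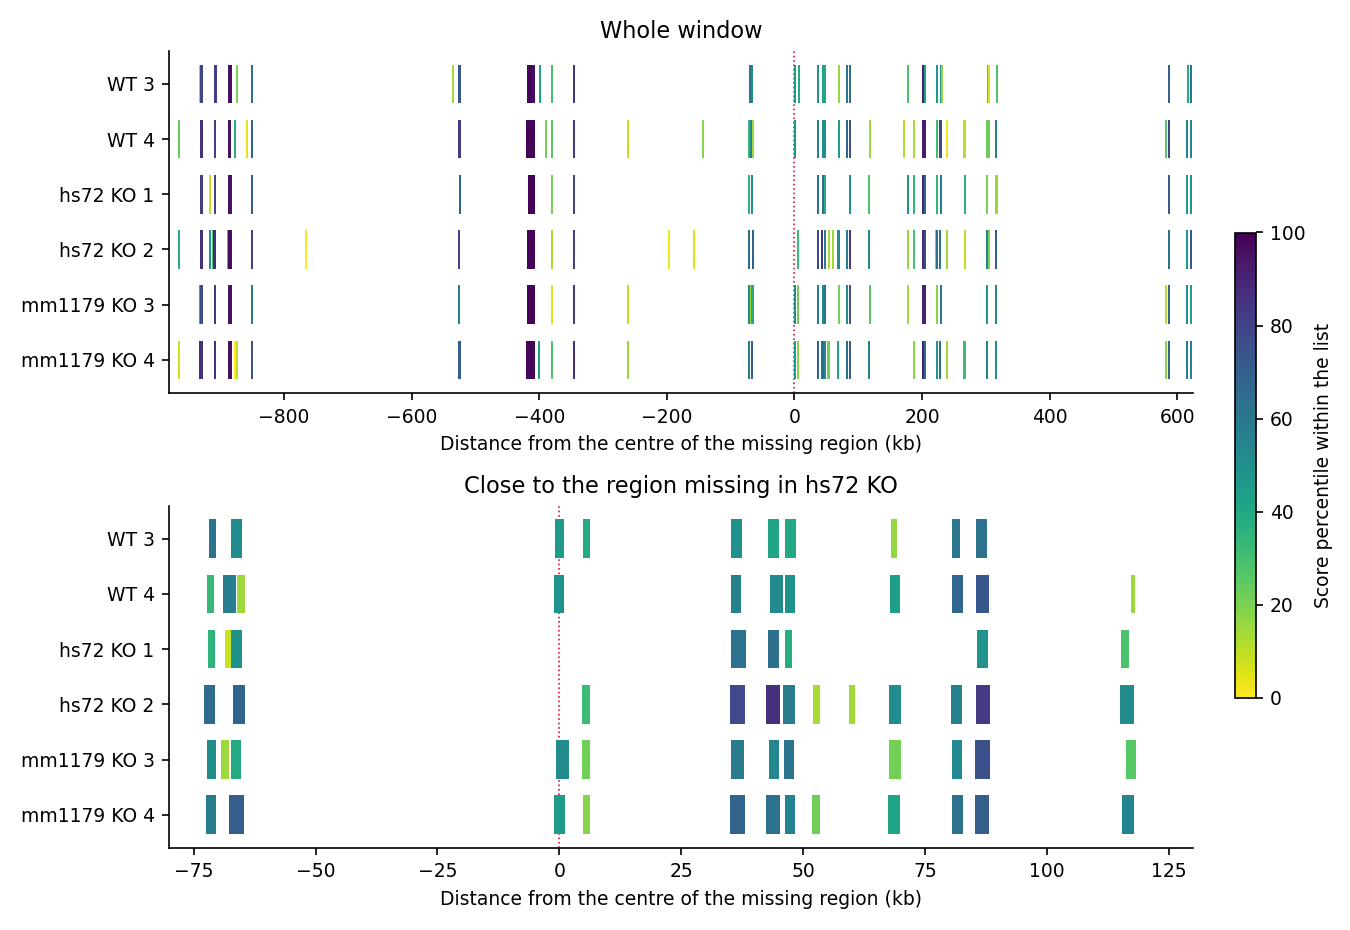
Peaks of the 6 libraries of the run in the chromosome 8 window, with libraries in rows and distance from the centre of the missing region in kb on the horizontal axis; each bar is a peak to scale, coloured by its percentile within its own list, for the whole window above and for the stretch close to the missing region below. The dotted line marks the centre of the region that WT 3, WT 4 and both mm1179 KO libraries call and the 2 hs72 KO libraries do not.

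The window is sparse around the missing region. The nearest peak before the missing region ended between 63.6 and 64.5 kb away in the 6 libraries of the run. That neighbour, chr8:91911191-91914044, was called by all 4 libraries at list percentiles of 52.0 in WT 3, 57.6 in WT 4, 49.3 in hs72 KO 1 and 67.8 in hs72 KO 2, so the groups overlapped. In WT 4 the peak nearest the missing region stood at 14.5, and the 57.6 belongs to a peak farther out. On the other side, a weak region at chr8:91983482-91984867 was called by WT 3 at percentile 39.7 and hs72 KO 2 at 31.8, and by neither WT 4 nor hs72 KO 1. It was called by 11 of the other 14 libraries. Its peak began 4.045 kb beyond the missing region in WT 3 and 3.693 kb beyond it in hs72 KO 2. In WT 4 and hs72 KO 1 the next peak began 34.25 and 34.28 kb beyond it.

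The next 2 regions on that side ranked higher in both knockout libraries than in both wild-type libraries. For these ranks each library was ranked again among the 26572 regions that all 4 libraries call, so that the lists have equal length. The region at chr8:92021264-92023832, which starts 41.83 kb beyond the missing one, stood at percentile 21.6 in WT 3, 25.4 in WT 4, 47.2 in hs72 KO 1 and 76.5 in hs72 KO 2. Its difference was 38.3 percentile points (SE 14.1), with an unadjusted p of 0.0139 and an adjusted p of 0.875 in limma. The region at chr8:92013686-92016692, 34.25 kb away, stood at 30.6 in WT 3, 30.3 in WT 4, 45.5 in hs72 KO 1 and 62.6 in hs72 KO 2. Its difference was 23.6 points (SE 13.5, limma adjusted p = 0.914). Neither passed the test across all regions, and the 2 knockout libraries lay far from each other in both. Without hs72 KO 2 the first difference was 23.7 points and the second 15.03, and without hs72 KO 1 they were 53.0 and 32.2.

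The other libraries show how widely these 2 regions range without the hs72 deletion. By list percentile, chr8:92021264-92023832 stood at 63.8 in hs72 KO 1 and 86.0 in hs72 KO 2, and in the other 14 libraries between 36.9 and 88.7 with a median of 69.0. Of those 14, 9 ranked it above the lower knockout value and 1 above both. WT 2 had it at 71.8. The region at chr8:92013686-92016692 stood at 62.6 and 77.6 in the knockout and between 4.21 and 69.7 in the other 14, with a median of 60.7. There 6 libraries exceeded the lower knockout value and 0 the higher. The mm1179 knockouts of the same run had 58.9 and 68.2 for this region, and 53.8 and 62.2 for the other. Among the 6 libraries of the run, the 2 knockout values were thus the highest at chr8:92021264-92023832, while mm1179 KO 4 lay between them at chr8:92013686-92016692. These list percentiles come from lists of different lengths and run tags, and no test was made of them.

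**Figure D2:**
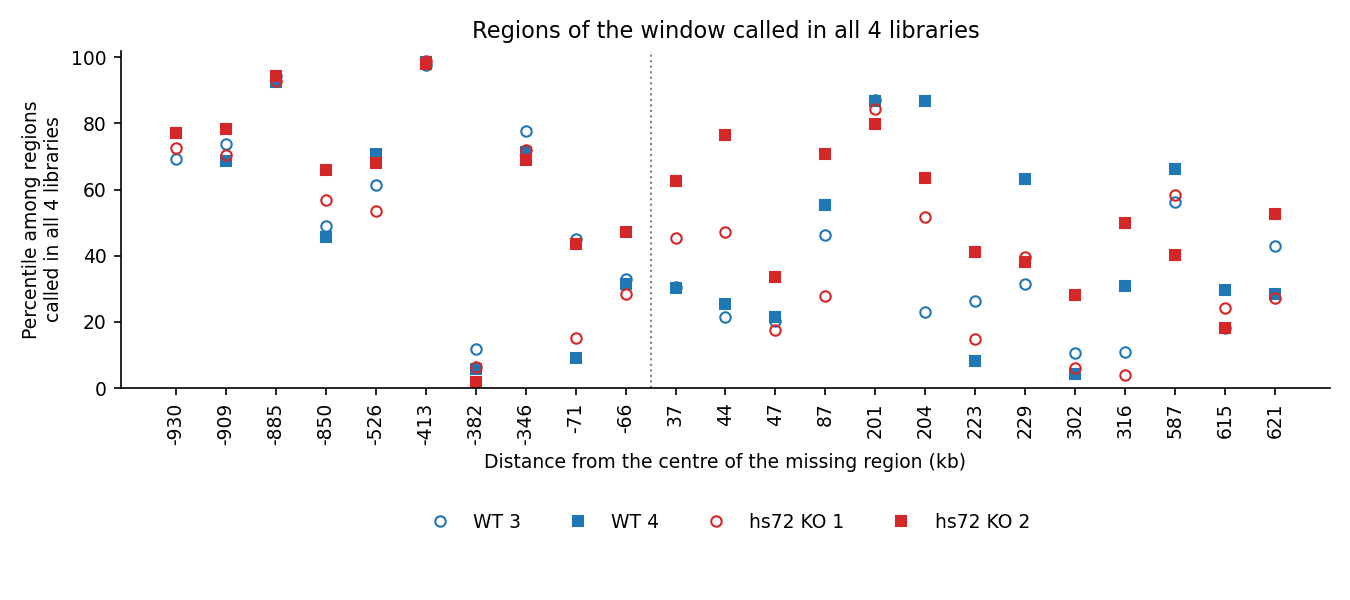
Percentile among the 26572 regions called in all 4 libraries (vertical axis) of the 23 such regions of the window, in order along the chromosome and labelled by distance in kb from the missing region, whose place is the dotted line; open circles and filled squares are single libraries, blue for WT and red for hs72 KO. At 37 and 44 kb both red points lie above both blue points, and at most other places the colours are mixed.

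Each other region of the window was called in at least 1 hs72 knockout library. Of its 38 regions, 23 (60.5%) were called by all 4 libraries, close to the share over the genome (60.7%). WT 3 called 29, WT 4 called 34, hs72 KO 1 called 29 and hs72 KO 2 called 36. Peaks covered 77.63 kb of the window in WT 3, 93.83 kb in WT 4, 70.71 kb in hs72 KO 1 and 106.7 kb in hs72 KO 2. The wild-type values lay between those of the 2 knockout libraries (88.71 ± 25.45 kb in the knockout, 85.73 ± 11.46 kb in the wild type, n = 2 each, exact p = 1). The strongest region was a domain of 12974 bp at chr8:91558708-91571681, with list percentiles of 98.5 in WT 3, 99.2 in WT 4, 99.2 in hs72 KO 1 and 98.9 in hs72 KO 2. After it came chr8:91090870-91096219 at 96.2, 95.6, 95.1 and 96.8 in the same order of libraries. Both kept their place at the top of all 4 lists. The first was called by 10 of the other 14 libraries and the second by 13, so a region of high rank could go uncalled. Of the 5 strongest, chr8:91046893-91051257 and chr8:91067926-91071828 ranged from 78.6 to 87.2 with overlapping groups.

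The third strongest region of the window, chr8:92177812-92181112, was the only one of the 23 that stood lower in both knockout libraries. Its percentile among shared regions was 87.1 in WT 3, 86.7 in WT 4, 84.5 in hs72 KO 1 and 79.9 in hs72 KO 2. The difference was -4.73 points (SE 2.65, limma adjusted p = 0.914). Its wild-type peaks differed in extent, 2581 bp in WT 3 and 6621 bp in WT 4, where the peak also took in the neighbouring region. Besides the 2 regions beyond the gap, chr8:91126716-91129427, centred at -850.5 kb from the missing region, stood higher in both knockout libraries, by 13.97 points (SE 11.1, limma adjusted p = 0.939). Genome-wide, the percentiles of both knockout libraries were above both wild-type ones in 16.5% of shared regions and below in 17.4%. The window's 3 of 23 and 1 of 23 stand beside those shares. Of the 23 differences, 15 were positive and 8 negative, with a median of 2.16 points against -0.30 over all shared regions.

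In the opposite direction, 2 regions of the window were called by both knockout libraries and neither wild-type library, against 3.78% of all regions (1656 of 43785). At chr8:92093851-92095314 the list percentiles were 28.2 in hs72 KO 1 and 51.6 in hs72 KO 2. Both mm1179 libraries of the run also called it, at 26.1 and 54.4, as did 11 of the other 14 in all. At chr8:91061088-91062333 they were 7.98 and 48.7, neither mm1179 library of the run called it, and 10 of the 14 did. Both regions thus have calls in many libraries that keep hs72. Among the 4 compared libraries, hs72 KO 1 alone missed the regions at chr8:92046380-92048495, chr8:92059026-92061187 and chr8:92282210-92283256. Of the other 14 libraries, 13, 14 and 5 called them, in that order. Over the genome, 2404 regions (5.49%) were missed by hs72 KO 1 alone of the 4. The region at chr8:92059026-92061187 had percentiles of 61.2 in WT 3, 67.2 in WT 4 and 56.7 in hs72 KO 2, above those of the missing region.

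Cutting the genome into tiles of 500 bp, called where peaks cover at least 250 bp, gave the same picture at a finer grain. A lost segment is a run of tiles that both wild-type and neither knockout library call, and a gained segment the reverse. Lost tiles were 3.52% of those that both wild-type libraries call, and gained tiles 5.64% of those that both knockout libraries call. The window held 2 lost segments. One, chr8:91977501-91979500, is the missing region, with 4 tiles or 2.0 kb. Its tiles were all called by 10 of the other 14 libraries, among them 1 of the mm1179 libraries of the run. The other, chr8:92283001-92283500, is a single tile at the edge of a weak peak that hs72 KO 2 also has. Among 3206 lost segments in the genome, 5 were longer than the first and 34 were of its length, itself included, while 1961 (61.2%) were single tiles. With 1 library left out the window held 3 to 17 lost segments, most without WT 3. The window held 6 gained segments, of which 2 had 3 tiles and lie in the regions just described, and 4 were single tiles. Gained segments numbered 5906 in the genome, and 4094 (69.3%) were single tiles.

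Across the genome, what the knockout called of the wild-type landscape depended on rank. Both wild-type libraries called 31458 regions, and both knockout libraries called 84.5% of them, 1 knockout library 11.1% and neither 4.45%. At wild-type percentiles from 0 to 25, 37.1% were called by both knockout libraries and 24.1% by neither. From 25 to 50 these shares were 71.7% and 5.97%, and from 50 to 75 they were 97.03% and 0.513%. Above 75, 9911 of 9917 regions were called by both and 4 by neither. The missing region, at 47.4, belongs to the range from 25 to 50, where 507 regions were missed by both knockout libraries.

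The reverse comparison had the same shape. Both knockout libraries called 32320 regions, and both wild-type libraries called 82.2% of them. From 0 to 25, 34.8% were called by both wild-type libraries and 25.5% by neither. From 25 to 50 the shares were 67.9% and 6.89%, from 50 to 75 they were 94.6% and 1.097%, and above 75 they were 99.8% and 0.168% (17 regions). Regions not called were thus concentrated among weak peaks in both directions.

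**Figure D3:**
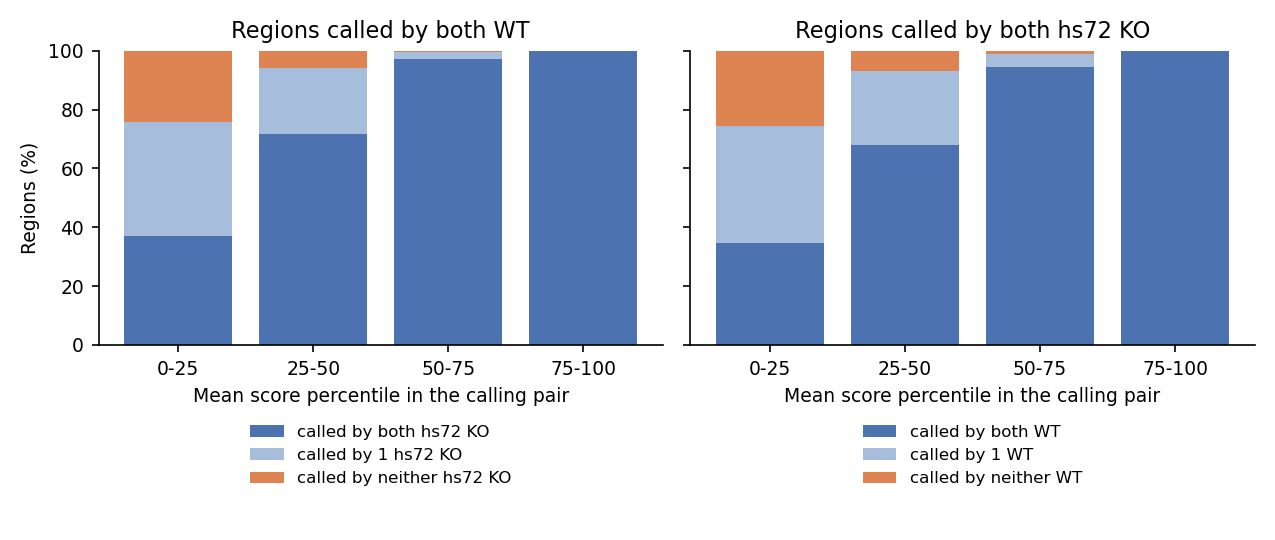
Share of regions (%, vertical axis) called by both libraries of one genotype that both, 1 or neither library of the other genotype call, by mean list percentile in the calling pair; WT regions on the left, hs72 KO regions on the right. The share called by neither falls from 24.1% to 0.04% on the left and from 25.5% to 0.168% on the right.

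Sorting libraries by genotype did not give the most frequent pattern of calls. Among regions called by exactly 2 of the 4 libraries, 3043 were called by WT 4 and hs72 KO 2, the 2 libraries with most peaks, 1656 by the knockout pair, 1500 by WT 4 and hs72 KO 1, and 1399 by the wild-type pair. A further 1322 were called by WT 3 and hs72 KO 2, and 714 by WT 3 and hs72 KO 1, the 2 shortest lists. Similarity by shared bases (Jaccard index, shared over total covered length) was 0.609 for the wild-type pair and 0.631 for the knockout pair. Between genotypes it ran from 0.602 to 0.648, which takes in both. The Spearman correlation of percentiles across the shared regions was 0.872 for the wild-type pair and 0.870 for the knockout pair, and between genotypes it ran from 0.853 to 0.880. These correlations are across regions, which are not independent replicates. Of the regions that both wild-type libraries call, hs72 KO 1 called 87.9% and hs72 KO 2 called 92.1%. The mm1179 libraries of the run called 89.8% and 95.0%, and WT 1 and WT 2 called 83.4% and 87.1%. The libraries outside the comparison were uneven, from 60.6% in hs1603 KO 1 to 98.7% in hs1262 KO 2.

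Most regions called in 1 genotype only were weak and narrow, as were other regions called by 2 libraries. Many had calls in other knockouts. The median width was 1037 bp for the wild-type-only and 1118 bp for the knockout-only regions, against 2462.5 bp for those called by all 4 libraries. The median list percentiles were 20.4, 22.1 and 67.7. Regions called by 1 library of each genotype were alike, with median widths from 974.5 to 1179 bp and median percentiles from 19.0 to 23.8. A region called by only 2 libraries is the stretch where both peaks lie, which by itself keeps it narrow. Of the wild-type-only regions, 24.8% were called by both mm1179 libraries of the run and 36.1% by neither. The corresponding shares of the knockout-only regions were 34.9% and 26.1%. WT 1 and WT 2 both called 14.8% of the wild-type-only and 14.6% of the knockout-only regions, so that the 2 sets had nearly the same share of calls in the other wild-type pair. Neither of them called 50.8% and 53.0%. For comparison, of the regions called by all 4 libraries, both mm1179 libraries of the run called 95.2%, and WT 1 and WT 2 both called 87.0%.

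Agreement of all other libraries was uncommon in both sets, while 41.0% of the regions called by all 4 compared libraries had it. The wild-type-only regions had a median of 7 calls among the other 14 libraries, 13 were called by all of them and 44 by none. The knockout-only regions had a median of 8 calls, 10 were called by all and 32 (1.93%) by none. These 32 are the regions seen only in the hs72 knockout among the 18 libraries. Their median percentile in the knockout was 10.7. One of high rank was among them, a stretch of 139 bp at chr8:110540308-110540446 with percentiles of 88.7 in hs72 KO 1 and 94.7 in hs72 KO 2, where peaks of 7816 and 14881 bp overlap it. The same peak of hs72 KO 2 also covers chr8:110545345-110549652, a region that all 4 compared and all 14 other libraries call. The percentiles of the stretch are thus those of wider peaks. The strongest of those at least 200 bp long, a limit set after the values were seen, was chr5:20641547-20642929 at percentile 36.6 in hs72 KO 1 and 16.5 in hs72 KO 2.

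**Figure D4:**
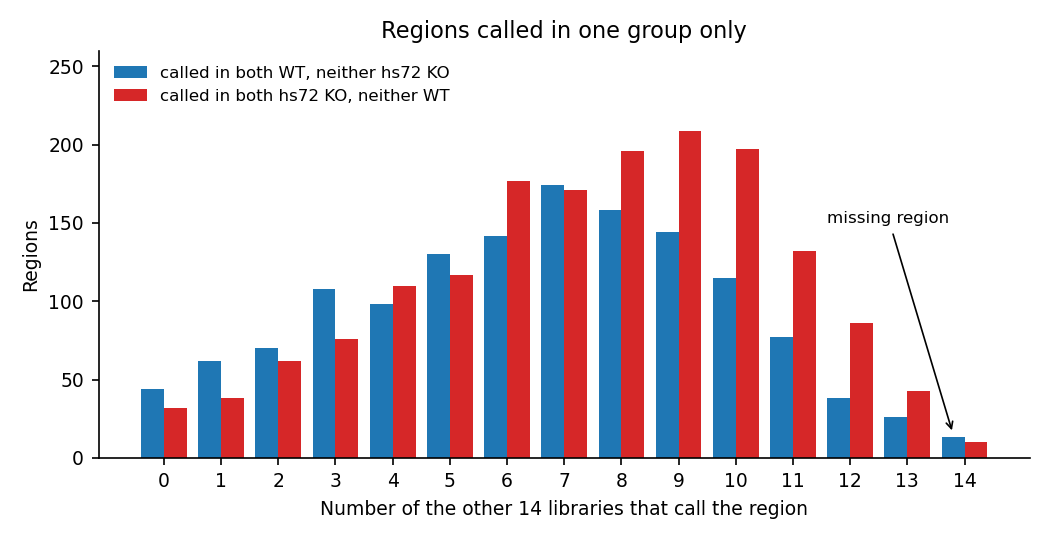
Number of regions (vertical axis) called in both WT and neither hs72 KO library (blue) or the reverse (red), by how many of the other 14 libraries call them. The blue set peaks at 7 calls and the red set at 9, while the missing region of the chromosome 8 window is among the 13 blue regions at 14.

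Regions of high rank that 1 genotype alone called were few, and most were edges of wider peaks. Above percentile 75 there were 4 wild-type-only regions, 3 of them under 200 bp, and 17 knockout-only regions, 14 of them under 200 bp. Such a sliver is the short stretch where a peak of 1 library overlaps a peak of the other library of its genotype. No peak of the other genotype lies there, and the percentiles are those of the whole peaks. An example is chr4:138818727-138818879, 153 bp at the edge of a peak of 9088 bp in hs72 KO 1 and of 10398 bp in hs72 KO 2. The exception among wild-type-only regions was chr2:52911475-52914225, 2751 bp long, where WT 3 had a peak at percentile 92.7 and WT 4 at 90.5. Neither hs72 KO library nor either mm1179 library of the run called it, and 4 of the other 14 did. It was also 1 of the 5 longest lost segments of the genome, all of 5 tiles (chr2:52911501-52914000, mean percentile 91.6). Of the other 4, those of highest mean percentile were chr4:135424501-135427000 with a mean percentile of 67.5 and chr1:157048501-157051000 with 60.8, whose tiles were all called by 7 and 6 of the other libraries. The longest gained segments had 6 tiles. They were chr16:63595501-63598500 at a mean percentile of 71.2, which both mm1179 libraries of the run and 10 of the 14 others in all called throughout, chrX:48819001-48822000 at 54.0 and chr3:125400501-125403500 at 40.1.

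Rank differences among the 26572 shared regions did not pass the test. Fitted over all of them with limma and adjusted by the Benjamini-Hochberg method, 0 regions (0.0%) were called at 0.05 in either direction, and the smallest adjusted p was 0.263. At an unadjusted p under 0.05 there were 1443 regions, or 5.43%. The median SE of a difference was 9.90 points, the median size of a difference 5.29 points, and the median gap between the 2 libraries of a genotype 7.30 points in the wild type and 7.15 in the knockout. Leaving out 1 library gave calls in both directions. Those fits take the gap of the remaining pair as the error of the lone library, whose own variation cannot be estimated. With 2 libraries a group, the count of 0 does not show that ranks were the same. Precision also depended on rank: within the window the SE was 0.994 points for chr8:91558708-91571681, at the top of the lists, and 14.1 points for chr8:92021264-92023832.

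**Figure D5:**
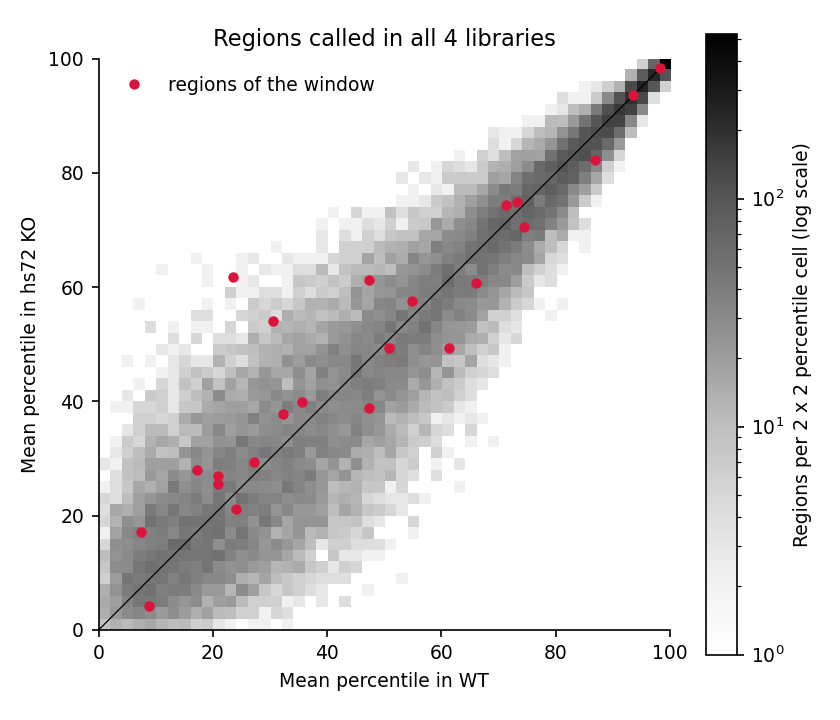
Mean percentile in WT (horizontal axis) and in hs72 KO (vertical axis) of the 26572 regions called in all 4 libraries, as the number of regions per cell of the grid on a log grey scale; the line is equality and red points are the 23 regions of the chromosome 8 window. The spread narrows towards the top, and the red point farthest above the line is the region whose mean is 23.5 in WT and 61.9 in hs72 KO.

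Several of the largest differences with no overlap between the groups went with a long peak in 1 library. The region chr11:98926388-98930306 stood at percentile 25.8 in WT 3, 14.7 in WT 4, 59.2 in hs72 KO 1 and 99.99 in hs72 KO 2, a difference of 59.3 points (limma adjusted p = 0.808). Its peak was 10994 bp wide in hs72 KO 2 and 1425 bp in WT 3. In the mm1179 library of replicate 4 the peak there was of like width, 10982 bp, at list percentile 96.8. The region chr15:102868425-102872805 stood at 12.6 in WT 3, 2.82 in WT 4, 60.2 in hs72 KO 1 and 68.0 in hs72 KO 2, with a difference of 56.4 points (limma adjusted p = 0.851). Both mm1179 libraries of the run had high values for it, with list percentiles of 77.3 and 80.6. The same held for chr8:110545345-110549652, which was 54.5 points higher in the knockout, and where mm1179 KO 3 and 4 had list percentiles of 83.2 and 96.5. The remaining 2 regions of the 5 that stood highest in the knockout differed by 58.6 (chr4:150196115-150197845) and 54.3 points.

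Of the 5 regions that stood lowest in the knockout, all had a much higher value in WT 4 than in WT 3. At chr12:8922534-8924486 the percentile was 33.1 in WT 3, 97.1 in WT 4, 10.3 in hs72 KO 1 and 1.18 in hs72 KO 2, a difference of -59.4 points (limma adjusted p = 0.875). The peak of WT 4 there was 5988 bp wide, and that of WT 3 was 1688 bp. Both mm1179 libraries of the run had wide peaks, of 6074 and 6352 bp, at list percentiles of 98.0 and 98.5. The other 4 differed by -49.6 (chr1:139819900-139821709), -49.1 (chr16:14158341-14159508), -48.0 (chr6:120063989-120065566) and -48.0 points (chr3:30307834-30312935). All 10 regions of largest difference lie outside the window near Sall1, where the largest difference was 38.3 points.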

How the data were processed

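H3K27ac peak lists of 4 libraries were compared, with the lists of 14 others as context. The 18 input samples were not used here. Tools listed, per the submitters' processing notes, were MACS 1.4.2, Bowtie 0.12.8, cutadapt 1.1, bcl2fastq 2.17 and CASAVA, with no order or role given, and the build mm9. The sources used here do not give their settings or say whether inputs served as control. Each deposited list, 1 per library, holds a position and a score per peak, from 40 upwards, whose definition the files do not state. Many of the strongest peaks share the score 3100, and ties took their mean rank. No lists were identical, and peaks within a list did not overlap.

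Group and replicate were read from the labels. A region's percentile in a library was that of its highest-scoring overlapping peak. Regions called by all 4 libraries were ranked again in each and fitted with limma 3.58.1 (R 4.3.3, mean-variance trend, Benjamini-Hochberg adjustment over 26572 regions, threshold 0.05). Single values per library were tested by exact two-sided permutation over libraries, going through every arrangement. Ranks were computed with scipy 1.17.1. Calls, tiles and the limma fit were tested on simulated data.

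Named regions were, in the window, those called in 1 genotype only, the 5 of highest mean percentile and those next to a lost segment; over the genome, the 5 strongest of each genotype alone, the 5 largest non-overlapping differences each way and the 3 longest lost and gained segments. Regions called by all or none of the other libraries, the limit of 200 bp, and the further regions of the window given with values (2 beyond the gap, 1 other that stood higher in the knockout and 3 missed by hs72 KO 1) were added after seeing the data. The comparison, window and lists were chosen with earlier results of these data known. Alternatives were a minimum score of 100, equal lists (the 38824 highest-scoring peaks of each), autosomes, all 4 wild-type libraries, regions of at least 1 list, 50% of a region covered, tiles of 1000 bp, normal scores, regions of mean percentile 50 or more, and leaving out each library.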

Additional observations from a re-analysis of the deposited data

How the results depend on the processing

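Of 87 alternative values, 59 kept their direction (counts also stayed within 1.5 times), 20 moved and 8 reversed. The 59 include values that could not change. Since a region needs 2 lists, leaving out WT 3 or WT 4 kept the wild-type-only count at 1399. Leaving out either knockout library likewise kept the knockout-only count at 1656. The region missing in the hs72 knockout was called by both wild-type and neither knockout library under every definition of regions and lists that was run, and lay in a lost segment under every tile setting. Much of this was fixed by construction. A minimum score, equal lists and autosomes only remove peaks, so they could not add a knockout call there. Leaving out a library could not undo the pattern either. Other values rested on single libraries. The difference in peak number turned from -254 to 1071 at a minimum score of 100 and to 2061.2 against all 4 wild-type libraries, and ran from -3165.5 to 2657.5 when single libraries were left out, positive without WT 4 or hs72 KO 1. The difference in covered length ran from -4.607 to 15.76 Mb, and that within the window from -15.01 to 20.98 kb, both negative without WT 3 or hs72 KO 2. The difference in mean peak width stayed positive in the alternatives run, between 58.48 bp without WT 3 and 241.4 bp without WT 4. At a minimum score of 100 the wild-type-only regions fell in number to 422 and the knockout-only regions to 840. Leaving out a library of the other genotype raised them by construction: the range was 1399 to 3803 for the former (2482 without hs72 KO 1, 3803 without hs72 KO 2) and 1656 to 4644 for the latter (2760 without WT 3, 4644 without WT 4). With limma, the 0 calls held for equal lists, normal scores and regions of mean percentile 50 or more. Leaving out 1 library, which assumes that the lone library varies like the other pair, gave 18 to 139 regions higher and 7 to 50 lower in the knockout, most without hs72 KO 1. Lost segments in the window numbered 2, and 1 each with tiles of 1000 bp, a minimum score of 100 and all 4 wild-type libraries. They ranged from 3 to 17 with a library left out (17 without WT 3, 9 without WT 4, 10 without hs72 KO 2). The 2 regions beyond the gap stayed higher in the knockout with equal lists and with each library left out, by 15.03 to 32.2 and 23.7 to 53.0 points, lowest without hs72 KO 2, with adjusted p of at least 0.241. No paired analysis was possible because the replicate numbers of the groups, 1 and 2 against 3 and 4, do not overlap. Depth is unknown for every list, so that a difference in calls cannot be set against a difference in depth.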

Other observations

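By chromosome, the share of regions called only in the wild type ran from 2.53% to 3.86% on the autosomes, and that of regions called only in the knockout from 3.02% to 4.45%. Chromosome 8, which carries the deletion, had 73 of the former (3.27%) and 85 of the latter (3.81%) among 2234 regions, within both ranges. On the X chromosome the shares were 1.63% (12 of 737) and 4.89% (36 of 737), which lie outside both. Peaks on the X numbered 644 in WT 3, 729 in WT 4, 685 in hs72 KO 1 and 770 in hs72 KO 2. These shares were not tested.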
